A study of Homo sapiens with 8 samples.

Results

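The genes described here are 10 genes of the KRAB corepressor machinery, the HUSH complex and the HP1 family, taken by name from a table of 35805 genes. They are TRIM28, SETDB1, ATF7IP, MPHOSPH8, FAM208A, PPHLN1, FAM208B, CBX1, CBX3 and CBX5, and all 10 passed the filter on low values, as did 14665 genes in all. Most were chosen for what they do, but FAM208B was chosen by its measured values, which were higher in cells that lost IRF2. Its differences between IRF2-guide cells and controls are therefore given as a description, with no test. It is tested only between the IRF2 guides and between the controls. The other genes, and the promoter motif searched below, were also chosen with earlier results of these data known.

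RNA was sequenced from K562 cells, an erythroleukaemia line, that express dCas9-KRAB, in which a Cas9 without nuclease activity carries a KRAB repressor domain. The 8 libraries form 4 groups of 2. Cells with either of a pair of CRISPRi guides against IRF2 (sg1-IRF2 and sg2-IRF2) and cells with sgAAVS1, a guide to the AAVS1 site that serves as negative control, were taken 7 days after transduction, and untransduced cells received no guide. The dCas9-KRAB fusion was thus present in all 4 groups, controls included, and no group shows the machinery without it. The promoter that drives the fusion, and whether the cells are 1 clone, are not stated in the sources used here. Nor do they say if both libraries of a group had their own culture, so the p-values measure only the spread between these libraries, which may be technical.

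As background, KRAB is the repressor domain of a large family of zinc finger proteins, and dCas9-KRAB borrows it. KRAB binds TRIM28 (also called KAP1), a scaffold that brings the histone methyltransferase SETDB1, which marks lysine 9 of histone H3, and HP1 proteins, which read that mark. SETDB1 is accompanied by ATF7IP. HUSH, the human silencing hub, is built of FAM208A (TASOR), MPHOSPH8 (MPP8), whose chromodomain binds the same mark, and PPHLN1 (periphilin), and with SETDB1 it silences retroelements, young L1 elements and newly integrated transgenes. FAM208B (TASOR2) is the paralogue of FAM208A. CBX5, CBX1 and CBX3 encode HP1 alpha, beta and gamma.

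Recovered reads over the listed genes ran from 5248359 to 6738348 per library. IRF2 itself had 4 and 8 reads with sg1-IRF2, 22 and 21 with sg2-IRF2, 196 and 291 with sgAAVS1, and 271 and 268 in untransduced cells. Against sgAAVS1 it fell by 4.51 ± 0.18 (SE) on the log2 scale with the guides together (limma moderated test, adjusted p = 2.55e-16). All 11 erythroid marker genes looked up, such as GATA1 and HBG1, passed the filter on low values, with summed levels of 1280 to 1330 reads per 1000000 listed reads with sg1-IRF2, 1280 to 1320 with sg2-IRF2, 1270 to 1370 with sgAAVS1 and 1240 to 1270 in untransduced cells. Of the markers of other cell types, 2 of 7 lymphoid genes passed, with no read of CD8A or MS4A1 in any library, as did 6 of 8 genes of adherent lines, with no read of CDH2, and 3 of 6 myeloid genes. Their summed levels overlapped between guide and control libraries (85.1 to 98.5 and 87.3 to 95.6 on that scale for the lymphoid genes, 724 to 774 and 718 to 802 for the adherent ones, 143 to 156 and 143 to 152 for the myeloid ones). Library medians over the tested genes were 5.63 and 5.69 with sg1-IRF2, 5.55 and 5.54 with sg2-IRF2, 5.62 and 5.62 with sgAAVS1, and 5.57 and 5.63 in untransduced cells. The sg2-IRF2 medians are the lowest. Calls that involve sg2-IRF2 on its own, with all 8 libraries fitted, are therefore given below with the library medians aligned as well. Differences of the guides together are as deposited unless stated.

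All 10 genes were expressed in every library. Levels between genes are compared as the mean deposited log2 value per exonic kilobase over the 8 libraries (exons of GENCODE release 29). All annotated exons of a gene were merged, to 12.16 kb for PPHLN1 and 4.03 kb for TRIM28. The order therefore depends on the annotation, used in these cells or not. TRIM28 had the highest level, at 6.18, above 98.9% of the tested genes. The HP1 genes followed, with CBX5 at 5.67, CBX3 at 5.19 and CBX1 at 5.10. CBX3 and CBX1 lie 0.09 apart on this scale, less than the range of either gene over the 8 libraries (0.23 and 0.17). FAM208B was at 4.73, and SETDB1 (4.45), MPHOSPH8 (4.40) and FAM208A (4.36) lay within the range of each other's libraries. ATF7IP was at 3.96, above the median of the tested genes, 3.53, and PPHLN1 was at 3.18, below that median. Each gene rests on at least 474 reads in its shallowest library.

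**Figure D1:**
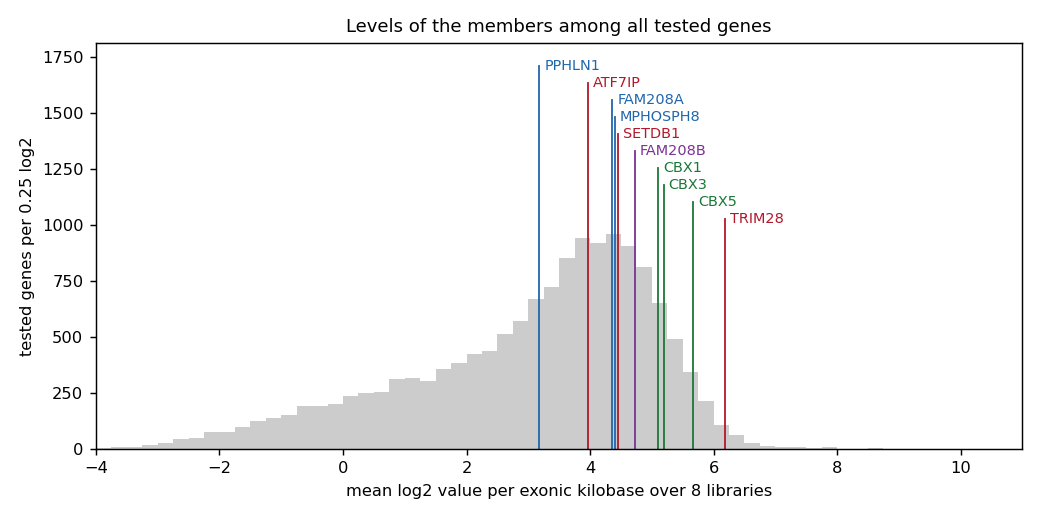
Distribution of the mean log2 value per exonic kilobase (x axis) over the tested genes with an exonic length (grey bars, y axis: genes per 0.25 log2), with a line for each of the 10 genes. Lines are red for TRIM28, SETDB1 and ATF7IP, blue for HUSH genes, purple for FAM208B and green for HP1 genes, and their heights only spread the labels. TRIM28 at 6.18 and CBX5 at 5.67 lie in the upper tail, and PPHLN1 at 3.18 lies below the median of 3.53.

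FAM208B was higher in cells with either IRF2 guide than in both kinds of control cells. The gene lies on the plus strand of chromosome 10 (5684838 to 5763740, hg38) and encodes a large nuclear protein related to TASOR. Its deposited log2 values were 8.44 and 8.49 with sg1-IRF2, 8.30 and 8.30 with sg2-IRF2, 8.01 and 8.10 with sgAAVS1, and 7.90 and 7.94 in untransduced cells. All 4 IRF2-guide libraries lay above all 4 control libraries, which held for 0.948% of the tested genes and, among the 10 genes, for FAM208B alone. These are the values for which the gene was chosen. They rest on 1704 and 1927 reads with sg1-IRF2, 1847 and 1750 with sg2-IRF2, 1162 and 1618 with sgAAVS1, and 1352 and 1352 in untransduced cells.

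With the guides together, FAM208B was higher than with sgAAVS1 by 0.32 ± 0.04 (SE), or 1.25-fold, and higher than in untransduced cells by 0.46 ± 0.04, or 1.38-fold. Among the tested genes, 96.0% had a lower difference from sgAAVS1 and 97.5% a lower one from untransduced cells. The difference from sgAAVS1 was 0.41 ± 0.05 for sg1-IRF2 and 0.24 ± 0.05 for sg2-IRF2. With library medians aligned these were 0.37 for sg1-IRF2 and 0.32 for sg2-IRF2, and the guides together differed by 0.35 from sgAAVS1 and by 0.46 from untransduced cells. When 1 library was left out, the guides together ran from 0.277 to 0.372 against sgAAVS1 and from 0.44 to 0.48 against untransduced cells. Against sgAAVS1, sg1-IRF2 then ran from 0.36 to 0.455 and sg2-IRF2 from 0.193 to 0.288. In bulk RNA, more cells that express a gene and more RNA per cell cannot be told apart. One exon stretch of FAM208B overlaps the antisense transcript AL365356.1 over 3.97% of its exonic bases, and with the strand setting of the counting unknown its reads cannot be told apart there.

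**Figure D2:**
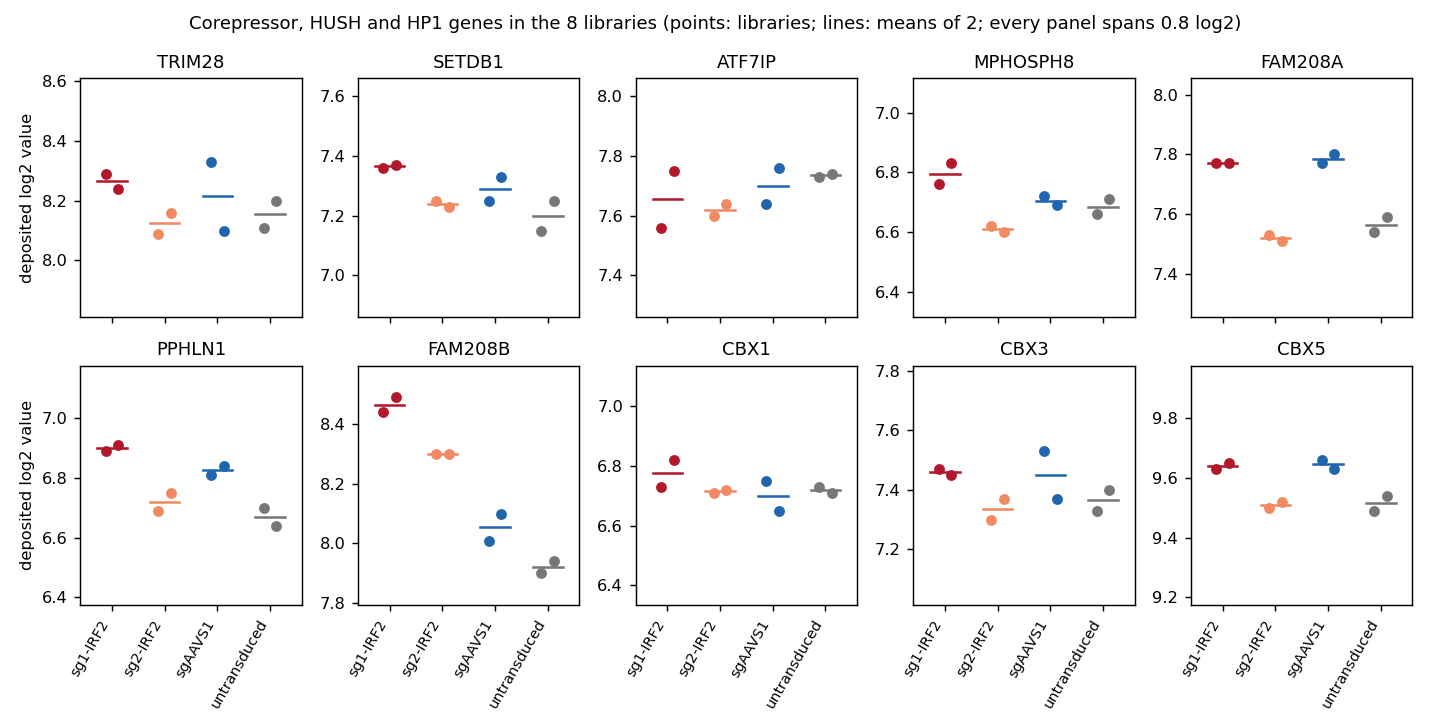
Deposited log2 value (y axis) of each of the 10 genes in the 8 libraries, by group (x axis); points are libraries, lines are means of 2, and every panel spans 0.8 log2 units. FAM208B stands above both controls in all 4 IRF2-guide libraries, from 8.30 upwards, while FAM208A, PPHLN1 and CBX5 are high with sg1-IRF2 and sgAAVS1 and low with sg2-IRF2 and in untransduced cells.

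A ratio taken within a library does not depend on how libraries are scaled. FAM208B gave 61.4% and 62.1% of the reads of the FAM208A and FAM208B pair with sg1-IRF2 (95% Wilson intervals 59.6 to 63.2 and 60.4 to 63.8), and 63.0% and 63.3% with sg2-IRF2 (61.2 to 64.7 and 61.5 to 65.0). It gave 54.2% and 55.3% with sgAAVS1 (52.1 to 56.3 and 53.5 to 57.1), and 56.2% and 56.0% in untransduced cells (54.2 to 58.2 and 54.0 to 58.0). The share describes the libraries on which FAM208B was chosen, and it also moves with FAM208A, which was lower with sg2-IRF2 than with sgAAVS1 by 0.26 on the log2 scale. These intervals hold counting error alone and leave out the spread between libraries. They take each read as a separate molecule, which was not checked, so they may be too narrow. They are no test of guides against controls. Against the mean of the 8 genes other than this pair, the log2 value of FAM208B was higher by 0.85 and 0.86 with sg1-IRF2 and by 0.83 and 0.80 with sg2-IRF2. That excess was 0.42 and 0.56 with sgAAVS1 and 0.41 and 0.42 in untransduced cells, below every IRF2-guide library.

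**Figure D3:**
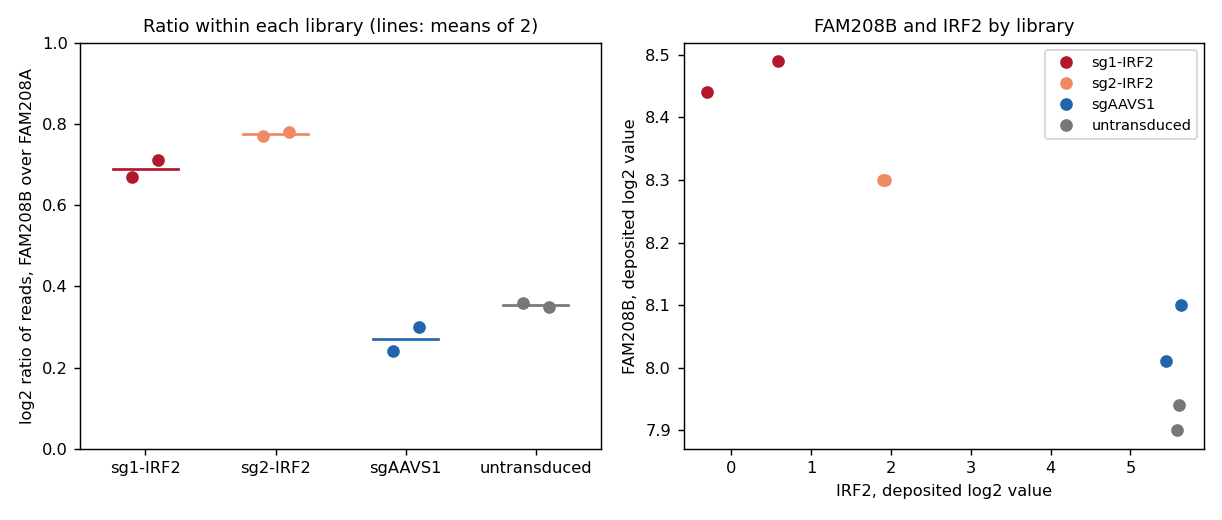
Left, log2 ratio of FAM208B over FAM208A reads within each library (y axis) by group (x axis), with lines at the means of 2. Right, deposited log2 value of FAM208B (y axis) against that of IRF2 (x axis), 1 point per library. FAM208B was chosen by these values, so the panel is a description and no test. The ratio runs from 0.67 to 0.78 in IRF2-guide libraries and from 0.24 to 0.36 in control libraries.

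The promoter sequences of FAM208B and of its paralogue FAM208A are printed because IRF2 binds DNA with repeated GAAA blocks, and a pair of them lies near the FAM208B start. Windows from 250 bases before to 50 after each RefSeq start (GRCh38.p14) were searched on both strands for 2 GAAA blocks set 2 bases apart, the core of the element bound by interferon regulatory factors. Of the 10 genes 9 had at least 1 window, 21 in all. The windows below surround the starts that the deposited table also uses, chr10:5684588-5684887 on the plus strand for FAM208B and chr3:56683188-56683487 on the minus strand for FAM208A, written 5′ to 3′ in the direction of the gene. Capitals mark the match.
FAM208B: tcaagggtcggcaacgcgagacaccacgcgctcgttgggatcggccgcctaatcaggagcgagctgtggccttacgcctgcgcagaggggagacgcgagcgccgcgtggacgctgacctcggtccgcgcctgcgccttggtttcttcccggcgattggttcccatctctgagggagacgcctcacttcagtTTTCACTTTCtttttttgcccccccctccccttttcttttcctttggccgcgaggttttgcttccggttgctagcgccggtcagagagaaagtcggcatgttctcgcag
FAM208A: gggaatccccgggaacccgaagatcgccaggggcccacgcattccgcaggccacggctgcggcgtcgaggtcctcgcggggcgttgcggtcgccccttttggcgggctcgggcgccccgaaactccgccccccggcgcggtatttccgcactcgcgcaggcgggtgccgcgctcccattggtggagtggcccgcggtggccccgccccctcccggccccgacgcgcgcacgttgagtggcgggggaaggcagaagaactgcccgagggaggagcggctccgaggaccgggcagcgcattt
The match TTTCACTTTC (chr10:5684779-5684788), whose GAAA blocks are on the other strand, begins 59 bases before the FAM208B start. The search pattern occurred in 3.57% of 35116 RefSeq windows, and the exact sequence, taken from the FAM208B window itself, on either strand in 0.202%. The second window of FAM208B had no match, nor did the 3 windows of FAM208A. The other windows with a match among the 10 genes were 3 of the 6 of ATF7IP and 2 of the 3 of CBX5, which overlap and hold 1 and the same match. None of these is the window that holds the start in the deposited table. A match is a description of these letters, and binding was not measured.

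With all 8 libraries fitted, none of the other 9 genes was called in IRF2-guide cells against either control. Calls are genes with an adjusted p under 0.05 (limma moderated test, Benjamini-Hochberg over the tested genes). Against sgAAVS1 the count was 0 of 9, beside 1.59% of the tested genes, and 0 by voom on recovered reads, beside 1.43%. Against untransduced cells it was also 0 of 9, beside 2.5% of the tested genes, and 0 by voom, beside 2.93%. In each comparison 2 of the 9 had an unadjusted p under 0.05, beside 1548 and 2054 of the 14665 tested genes. As for single libraries, 0 of the 10 genes had all 4 IRF2-guide libraries below all 4 control libraries, beside 1.79% of the tested genes. Log2 differences of the 9 ran from -0.14 to 0.05 against sgAAVS1 and from -0.10 to 0.14 against untransduced cells. Their 95% intervals lay between -0.22 and 0.15, and between -0.19 and 0.24. The median of the 9 was -0.02 against sgAAVS1 and 0.04 against untransduced cells, beside -0.02 and 0.01 over the tested genes. With library medians aligned 0 of the 9 were called against either control, beside 1.42% and 2.52% of the tested genes. These comparisons share the IRF2-guide libraries.

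**Figure D4:**
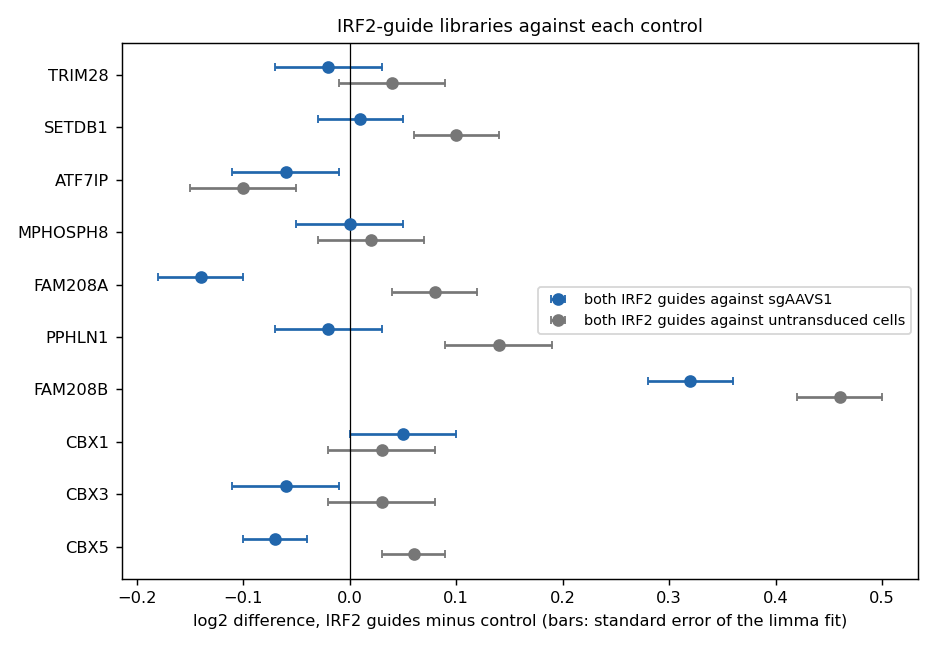
Log2 difference of the guides together minus each control (x axis, bars are standard errors of the limma fit) for the 10 genes (y axis); blue is against sgAAVS1 and grey against untransduced cells. FAM208B lies at 0.32 and 0.46, and the other genes lie between -0.14 and 0.14.

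FAM208A gave no call with the guides together but differed between single groups. FAM208A (chromosome 3, minus strand, 56620133 to 56683237, hg38) is the platform subunit of HUSH. Its log2 values were 7.77 and 7.77 with sg1-IRF2, 7.53 and 7.51 with sg2-IRF2, 7.77 and 7.80 with sgAAVS1, and 7.54 and 7.59 in untransduced cells. The sg1-IRF2 and sgAAVS1 libraries were high and did not overlap the sg2-IRF2 and untransduced libraries, which were low. With the guides together it differed from sgAAVS1 by -0.14 ± 0.04 (limma, adjusted p = 0.105) and from untransduced cells by 0.08 ± 0.04 (adjusted p = 0.392). Without sgAAVS1 replicate 1 the first of these passed the threshold (-0.15, adjusted p = 0.046), with the spread of the lone sgAAVS1 library taken from the other groups. With sg2-IRF2 alone it fell by 0.26 ± 0.05 relative to sgAAVS1 (limma, adjusted p = 9.16e-04), and with library medians aligned by 0.18 (adjusted p = 0.0233). With sg1-IRF2 the difference from sgAAVS1 was -0.01 ± 0.05 (adjusted p = 0.975). With sgAAVS1 it rose by 0.22 ± 0.05 over untransduced cells (adjusted p = 0.00605, and 0.19 with medians aligned, adjusted p = 0.0156).

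Without a mean-variance trend FAM208A missed the threshold with sg2-IRF2 against sgAAVS1 (adjusted p = 0.104) and with sgAAVS1 against untransduced cells (adjusted p = 0.166). The second call was also lost without untransduced replicate 1 (0.19, adjusted p = 0.121). Against the mean of the 8 genes other than FAM208A and FAM208B, the within-library excess of FAM208A was 0.18 and 0.15 with sg1-IRF2, 0.06 and 0.02 with sg2-IRF2, 0.18 and 0.25 with sgAAVS1, and 0.05 and 0.07 in untransduced cells. That split does not depend on library scaling either. FAM208A shares 2.92% of its exonic bases with CCDC66 on the opposite strand.

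The other HUSH subunits gave no call with the guides together when all 8 libraries were fitted. PPHLN1 (chromosome 12, plus strand, 42238447 to 42459715), an RNA-binding subunit, had log2 values of 6.89 and 6.91 with sg1-IRF2, 6.69 and 6.75 with sg2-IRF2, 6.81 and 6.84 with sgAAVS1, and 6.70 and 6.64 in untransduced cells. As deposited, all sg1-IRF2 and sgAAVS1 libraries lay above all sg2-IRF2 and untransduced libraries, which held for 16.4% of the tested genes. FAM208A kept this split with library medians aligned, and PPHLN1 did not. Some exonic bases of PPHLN1 overlap PRICKLE1 on the opposite strand. Its difference was 0.14 ± 0.05 for the guides together against untransduced cells (adjusted p = 0.138), and it was called in the same comparison without sgAAVS1 replicate 1 or 2 (adjusted p = 0.0443 for each) and in a fit with only the groups compared (adjusted p = 0.0444). MPHOSPH8 (chromosome 13, plus strand, 19633681 to 19673459), the subunit that reads methylated lysine 9, had log2 values of 6.76 and 6.83 with sg1-IRF2, 6.62 and 6.60 with sg2-IRF2, 6.72 and 6.69 with sgAAVS1, and 6.66 and 6.71 in untransduced cells. As deposited it was highest in the sg1-IRF2 libraries and lowest in the sg2-IRF2 libraries, while sgAAVS1 and untransduced libraries overlapped. With library medians aligned MPHOSPH8 differed by 0.07 for sg1-IRF2 against sg2-IRF2 (limma, adjusted p = 0.586). Its difference for the guides together against sgAAVS1 was 0.00 ± 0.05 (adjusted p = 0.995).

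TRIM28, SETDB1 and ATF7IP, the scaffold that binds KRAB and the methyltransferase with its partner, gave no call with the guides together. TRIM28 (chromosome 19, plus strand, 58544091 to 58550722) had log2 values of 8.29 and 8.24 with sg1-IRF2, 8.09 and 8.16 with sg2-IRF2, 8.33 and 8.10 with sgAAVS1, and 8.11 and 8.20 in untransduced cells. The sgAAVS1 libraries spanned nearly the whole range and overlapped every other group. The difference of the guides together from sgAAVS1 was -0.02 ± 0.05 (adjusted p = 0.941). Without sgAAVS1 replicate 1, the lone sgAAVS1 library left a difference of 0.17 for sg1-IRF2 against sgAAVS1 (adjusted p = 0.0342), where the lone library is assumed to vary like the other groups.

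SETDB1 (chromosome 1, plus strand, 150926263 to 150964744) had log2 values of 7.36 and 7.37 with sg1-IRF2, 7.25 and 7.23 with sg2-IRF2, 7.25 and 7.33 with sgAAVS1, and 7.15 and 7.25 in untransduced cells. Both sg1-IRF2 libraries lay above the other 6 as deposited. With library medians aligned SETDB1 differed by 0.01 for sg1-IRF2 against sg2-IRF2 (limma, adjusted p = 0.948). The difference with the guides together was 0.01 ± 0.04 from sgAAVS1 (adjusted p = 0.956) and 0.10 ± 0.04 from untransduced cells (adjusted p = 0.294). SETDB1 shares 13.4% of its exonic bases with CERS2 on the opposite strand, where reads of the pair cannot be told apart. ATF7IP (chromosome 12, plus strand, 14365632 to 14502935), the partner of SETDB1, had log2 values of 7.56 and 7.75 with sg1-IRF2, 7.60 and 7.64 with sg2-IRF2, 7.64 and 7.76 with sgAAVS1, and 7.73 and 7.74 in untransduced cells. The sg1-IRF2 libraries spanned nearly the whole range and overlapped every other group. The differences were -0.06 ± 0.05 from sgAAVS1 (adjusted p = 0.718) and -0.10 ± 0.05 from untransduced cells (adjusted p = 0.375). They ran from -0.122 (without sgAAVS1 replicate 1) to -0.003 (without sgAAVS1 replicate 2), and from -0.142 (without sg1-IRF2 replicate 2) to -0.05 (without sg1-IRF2 replicate 1).

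Among the HP1 genes CBX5 followed the split seen for FAM208A. CBX5 (chromosome 12, minus strand, 54230940 to 54280133) had log2 values of 9.63 and 9.65 with sg1-IRF2, 9.50 and 9.52 with sg2-IRF2, 9.66 and 9.63 with sgAAVS1, and 9.49 and 9.54 in untransduced cells. With sg2-IRF2 it fell by 0.14 ± 0.04 relative to sgAAVS1 (adjusted p = 0.0238), and with sgAAVS1 it rose by 0.13 ± 0.04 over untransduced cells (adjusted p = 0.0493). Neither call held with library medians aligned (-0.06, adjusted p = 0.533, and 0.10, adjusted p = 0.191). The second was also lost without any 1 of the sg1-IRF2, sg2-IRF2 or untransduced libraries, with adjusted p from 0.10 to 0.354, and the first without any 1 of the sg1-IRF2 or sg2-IRF2 libraries, with adjusted p from 0.0547 to 0.237. CBX5 and SETDB1 joined FAM208A and PPHLN1 as the 4 genes whose sg1-IRF2 and sgAAVS1 libraries all lay above the sg2-IRF2 and untransduced libraries, beside 16.4% of the tested genes. With medians aligned FAM208A alone did so, beside 7.35%.

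CBX3 (chromosome 7, plus strand, 26201162 to 26213356) had log2 values of 7.47 and 7.45 with sg1-IRF2, 7.30 and 7.37 with sg2-IRF2, 7.53 and 7.37 with sgAAVS1, and 7.33 and 7.40 in untransduced cells. As for TRIM28, the sgAAVS1 libraries lay far apart. CBX1 (chromosome 17, minus strand, 48070052 to 48101521) had log2 values of 6.73 and 6.82 with sg1-IRF2, 6.71 and 6.72 with sg2-IRF2, 6.75 and 6.65 with sgAAVS1, and 6.73 and 6.71 in untransduced cells. Both genes overlapped between guide and control libraries. Against sgAAVS1, CBX3 differed by -0.06 ± 0.05 (adjusted p = 0.756) and CBX1 by 0.05 ± 0.05 (adjusted p = 0.828). CBX3 shares 7.93% of its exonic bases with HNRNPA2B1 on the opposite strand.

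The counts of calls for each guide alone, and for sgAAVS1, were as follows. With sg1-IRF2 against sgAAVS1, 0 of the 9 genes had an unadjusted p under 0.05, beside 1131 of the 14665 tested genes. Calls numbered 0 of the 9 by voom, beside 0.764% of the tested genes, and 0 by limma, beside 0.825%. Without sgAAVS1 replicate 1 the count was 1, TRIM28, beside 1.62%. Where a group is left with 1 library, that library is assumed to vary like the other groups. With sg2-IRF2 against sgAAVS1, 2 of the 9 were lower, FAM208A and CBX5, and 0 higher, beside 7.11% of the tested genes called lower and 1.05% higher. With library medians aligned FAM208A alone was called, beside 1.62% of the tested genes lower and 1.79% higher. With sgAAVS1 against untransduced cells, 2 of the 10 genes were higher, FAM208A and CBX5, and 0 lower, beside 2.97% of the tested genes higher and 1.79% lower. With medians aligned FAM208A alone was higher, beside 2.06% of the tested genes higher and 2.36% lower. FAM208B differed there by 0.14 ± 0.05 (adjusted p = 0.0836). Without 1 library at a time, sg2-IRF2 against sgAAVS1 kept 1 call without any 1 of the sg1-IRF2 or sg2-IRF2 libraries, and had 4, TRIM28 and CBX3 besides, without sgAAVS1 replicate 2, where 13.1% of the tested genes were called in either direction. For sgAAVS1 against untransduced cells the count was 4 without sgAAVS1 replicate 2, again with TRIM28 and CBX3 (9.93% of the tested genes), 3 without sgAAVS1 replicate 1, with FAM208B (6.24%), 0 without untransduced replicate 1 (1.25%), and 1 without any 1 of the other libraries. The comparisons with sgAAVS1 share its libraries.

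Between the guides, all 10 genes had positive differences, and so did 81.5% of the tested genes. With sg1-IRF2 against sg2-IRF2, 5 of the 10 genes were higher and 0 lower, beside 12.7% of the tested genes called higher and 0.634% lower. They were FAM208A (0.25 ± 0.05, adjusted p = 0.0018), PPHLN1 (0.18 ± 0.06, adjusted p = 0.0324), MPHOSPH8 (0.18 ± 0.06, adjusted p = 0.0354), FAM208B (0.17 ± 0.05, adjusted p = 0.019) and CBX5 (0.13 ± 0.04, adjusted p = 0.0267). All 3 HUSH subunits are thus among them. The count of the 10 genes moved with that of all tested genes when 1 library was left out. It was 8 without either sgAAVS1 library, beside 24.6% and 24.7% of the tested genes called in either direction. It was 1 (FAM208A) without replicate 1 of sg1-IRF2 or of sg2-IRF2, beside 6.07% and 2.54%, and 0 without replicate 2, beside 0.784% and 1.32%. The median was 0.14 over the 10 genes, beside 0.11 over the tested genes. Relative to that shift, with library medians aligned, 0 of the 10 genes were called by limma, and 0 were called by voom on recovered reads. FAM208A then differed by 0.14 ± 0.04 (adjusted p = 0.144) and FAM208B by 0.05 ± 0.04 (adjusted p = 0.661), while the differences of ATF7IP and CBX1 turned negative. Of the tested genes 86 (0.586%) were then higher and 145 (0.989%) lower, where 1859 were higher and 93 lower as deposited.

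**Figure D5:**
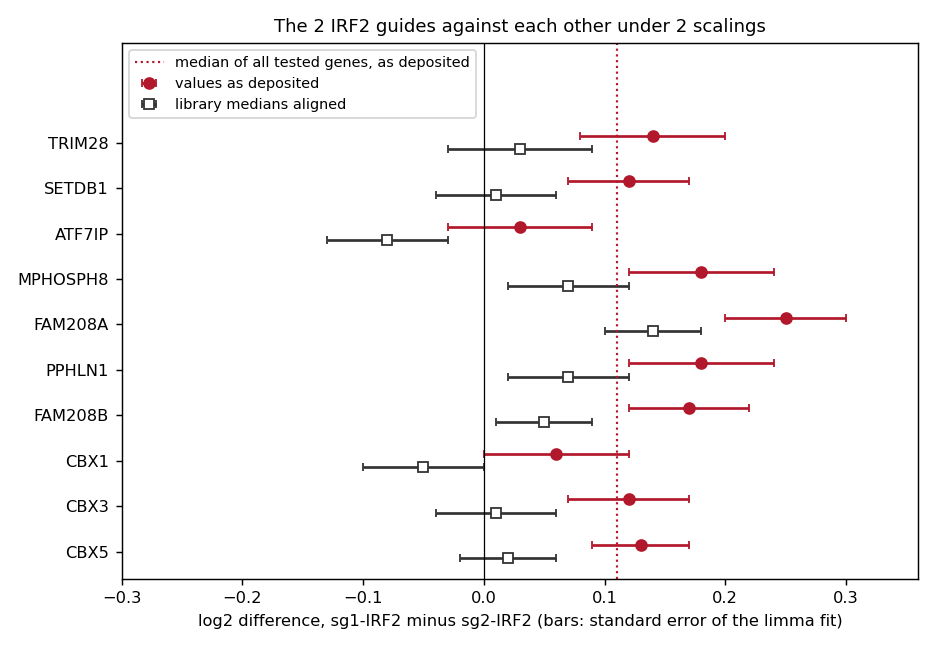
Log2 difference of sg1-IRF2 minus sg2-IRF2 (x axis, bars are standard errors of the limma fit) for the 10 genes (y axis), with values as deposited (red circles) and with library medians aligned (open squares); the dotted line is the median of all tested genes as deposited, 0.11. Values as deposited lie between 0.03 and 0.25, around that line, and aligned values lie between -0.08 and 0.14.

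Genes around this machinery gave no call with the guides together. Lists of 81 genes in 9 groups cover TIF1 relatives of TRIM28, HUSH and RNA decay partners such as MORC2, other H3K9 methyltransferases, H3K9 demethylases, the NuRD complex, DNA methylation, the SUMO pathway, heterochromatin and HP1 partners, and Polycomb chromobox genes. Of these 79 were tested, the exceptions being MORC4 and CDYL2. With the guides together, 0 of the 79 were called by limma against sgAAVS1, with 10 at an unadjusted p under 0.05, and 0 against untransduced cells, with 11 at an unadjusted p under 0.05. Beside them 1.59% and 2.5% of the 14665 tested genes were called, and 1548 and 2054 had an unadjusted p under 0.05. Library medians aligned gave 0 in both. By group, genes at an unadjusted p under 0.05 against sgAAVS1 numbered 0 of 3 TIF1 relatives, 0 of 6 HUSH partners, 1 of 8 methyltransferases, 2 of 9 demethylases, 2 of 13 NuRD genes, 2 of 10 DNA methylation genes, 2 of 13 SUMO genes, 1 of 12 heterochromatin genes and 0 of 5 Polycomb genes. Against untransduced cells the same groups had 0, 0, 2, 2, 1, 1, 0, 4 and 1. Their median differences were -0.02 and 0.02, beside -0.02 and 0.01 over the tested genes.

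The genes whose pattern over the 8 libraries was most like that of FAM208B were found by Pearson's r over 12499 genes with a mean log2 value of at least 2. The r is a measure of likeness only, since the libraries form 4 groups and share their scaling. FAM208B was also chosen for its higher values in the IRF2-guide libraries. A low r for IRF2 and for genes that fall with the guides follows from that choice and is no separate evidence. The 5 highest were ZNF850, a zinc finger gene (0.984), RBCK1, a subunit of the linear ubiquitin ligase complex (0.976), CTD-2366F13.1 (0.974), TK2, the mitochondrial thymidine kinase (0.966), and CEP170, a centrosomal protein gene (0.962). Their differences with the guides together against sgAAVS1 ran from 0.06 for CEP170 to 0.67 for CTD-2366F13.1, and against untransduced cells from 0.07 to 0.79. The 5 lowest were ISG20, an interferon-stimulated exonuclease (-0.965), TRAF5, a signalling adaptor (-0.960), IRF2 itself (-0.954), UBE2L6, the conjugating enzyme for ISG15 (-0.952), and TRIM34, of the antiviral TRIM family (-0.950). Their differences with the guides together against sgAAVS1 ran from -0.35 for TRAF5 to -4.51 for IRF2.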

How the data were processed

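The deposited log2 values are, judged from the values, log2 of each gene's reads over a factor common to its library, and genes without a read are listed as 0.9 read. All values gave whole reads within a tolerance of 0.01. Per the submitters' processing notes the tools included cutadapt and Bowtie2 with build hg38; versions, the counter and its strand setting are not stated in the sources used here.

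Differences come from limma 3.58.1 in R 4.3.3 (linear model, mean-variance trend) on the deposited log2 values of 14665 genes with a mean of at least 0, all 8 libraries in 1 fit (4 residual and 22.4 prior degrees of freedom). Calls have a Benjamini-Hochberg adjusted p under 0.05. The test was tried on simulated data first. Depth was 5248359 to 6738348 recovered reads per library. Alternatives were other filters, library medians aligned, quantile normalization, no trend, array weights, voom on recovered reads, only the groups compared, a replicate block and leaving out each library. Exonic lengths came from GENCODE release 29 and were found for 98.6% of tested genes. Tables were made with Python 3.11.15. Named beside the 10 genes are IRF2, genes of the 9 lists called in either comparison of the guides together (there were none), and the 5 genes most and least like FAM208B. The 10 genes, the lists and the promoter motif were chosen with earlier results of these data known.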

Additional observations from a re-analysis of the deposited data

Results flagged for a closer look

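Between the IRF2 guides, 5 of the 10 genes differed in the direct test of sg1-IRF2 against sg2-IRF2 (limma, adjusted p under 0.05). Beside them 12.7% of the tested genes were called higher and 0.634% lower. The difference, sg1-IRF2 minus sg2-IRF2, was 0.25 for FAM208A, 0.18 for MPHOSPH8, 0.18 for PPHLN1, 0.17 for FAM208B and 0.13 for CBX5, on the log2 scale. The median over all tested genes was 0.11 in the same comparison. With library medians aligned the 5 values were 0.14, 0.07, 0.07, 0.05 and 0.02, with adjusted p of 0.144, 0.586, 0.627, 0.661 and 0.909. IRF2 itself differed between sg1-IRF2 and sg2-IRF2 by -1.77 ± 0.21 (limma, adjusted p = 9.73e-06), and the part of that difference in the 5 values was not tested.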

How the results depend on the processing

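The counts below are calls among the 10 genes (9 where FAM208B is not tested), in 17 alternative settings, and causes were not tested unless the setting itself shows one. Percentages in brackets are the share of all tested genes called in either direction in the same setting. Calls with 1 library left out are given above. With the guides together against untransduced cells the count was 1 with only the groups compared (5.69%). It was 0 in the other settings that left out no single library. Against sgAAVS1 it was 0 in all settings of that kind, as it was for sg1-IRF2 against sgAAVS1. For sg2-IRF2 against sgAAVS1 the count was 2 as reported (8.16%). It was 1 with no filter (4.91%), medians aligned (3.41%), quantile normalization (4.22%), voom (3.83%) and only the groups compared (3.64%). With no trend it was 0 (0.389%). For sg1-IRF2 against sg2-IRF2 it was 5 as reported (13.3%) and 3 with no filter (6.14%). It was 0 with medians aligned (1.58%), quantile normalization (1.96%), no trend (0.0136%) and voom (1.57%). With array weights (27.4%) and when only the compared groups were fitted (27.5%) it was 8. For sgAAVS1 against untransduced cells it was 2 as reported, 1 with no filter, with medians aligned, with quantile normalization, with array weights and when only the compared groups were fitted, 0 with no trend, and 0 to 4 when 1 library was left out.

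With the replicate block the count was 1 for sgAAVS1 against untransduced cells, beside 4.37% of the tested genes called. It was 5 for sg1-IRF2 against sg2-IRF2 (12.3%), 2 for sg2-IRF2 against sgAAVS1 (7.58%) and 0 in the other comparisons. Deviations of libraries with the same number correlated at -0.079 to 0.216 over 12500 genes between groups, so the numbers were not taken to pair the libraries.

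Signs turned for some differences that were not called as reported. The ranges below also hold values that are not near 0. With the guides together against sgAAVS1, TRIM28 was 0.003 with medians aligned, 0.002 with quantile normalization and 0.008 with voom, and PPHLN1 was 0.004 with medians aligned. When 1 library was left out, TRIM28 ran from -0.137 to 0.101, SETDB1 from -0.026 to 0.051, MPHOSPH8 from -0.018 to 0.02, CBX1 from 0.0 to 0.092 and CBX3 from -0.136 to 0.024. Against untransduced cells TRIM28 ran from -0.001 to 0.085, MPHOSPH8 from -0.007 to 0.043 and CBX3 from -0.004 to 0.066. For sg1-IRF2 against sgAAVS1, FAM208A ran from -0.029 to 0.005 and CBX5 from -0.022 to 0.006. For sg1-IRF2 against sg2-IRF2, ATF7IP was -0.08, -0.076 and -0.07 and CBX1 -0.051, -0.047 and -0.042 with medians aligned, quantile normalization and voom, and ATF7IP ran from -0.061 to 0.125 when 1 library was left out. For sgAAVS1 against untransduced cells, MPHOSPH8 was -0.007, -0.012 and -0.013 in the same 3 settings. When 1 library was left out there, it ran from -0.008 to 0.042, TRIM28 from -0.059 to 0.18, ATF7IP from -0.092 to 0.026 and CBX1 from -0.065 to 0.027.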

Other observations

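Genes of the 9 lists around this machinery were called in comparisons that set single groups against each other, where the scaling of the libraries also moves. With sg1-IRF2 against sg2-IRF2, 24 of the 79 tested list genes were higher and 1 lower (limma, adjusted p under 0.05), which is 31.6% beside 13.3% of all tested genes. With library medians aligned 0 were higher and 2 lower, beside 0.586% and 0.989%. With sg2-IRF2 against sgAAVS1, 2 were higher and 9 lower, beside 1.05% of all tested genes higher and 7.11% lower, and with medians aligned 4 were higher and 0 lower, beside 1.79% and 1.62%. With sgAAVS1 against untransduced cells, 4 were higher and 2 lower, beside 2.97% and 1.79%, and with medians aligned 3 were higher and 4 lower, beside 2.06% and 2.36%. With sg1-IRF2 against sgAAVS1 none was called by limma, with 6 at an unadjusted p under 0.05, beside 0.825% of all tested genes called. The median log2 difference of the list genes was 0.12, -0.08, 0.04 and 0.03 in these comparisons, beside 0.11, -0.07, 0.03 and 0.04 over all tested genes.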
